A study of Mus musculus with 6 samples.

Results

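The genes described here are the 32 that carry fatty acids into muscle, activate them and oxidise them, nearly all in mitochondria, with the enzymes that set malonyl-CoA. They were picked by gene symbol, and all 32 were among the 23238 symbols counted, each on 1 line of every table. RNA came from the gastrocnemius, a calf muscle made mostly of fast fibres, of wild-type C57/BL6J mice aged 26 months. The 3 vehicle libraries were from mice given saline with 5% DMSO, and the 3 farnesol libraries from mice given farnesol at 350 mg/kg, in both groups by mouth for 30 days. Farnesol is an isoprenoid alcohol of the mevalonate pathway. The labels do not say whether each library is 1 mouse, so the p-values measure the spread between libraries.

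Muscle takes up fatty acids that lipoprotein lipase frees from circulating triglyceride, moves them across the membrane with CD36 and fatty acid transport proteins, and binds them to FABP3 in the cytosol. Acyl-CoA synthetases activate them, and the carnitine shuttle brings the long chains into the matrix. There each turn of beta-oxidation runs through an acyl-CoA dehydrogenase, a hydratase, a hydroxyacyl-CoA dehydrogenase and a thiolase, and passes electrons to the respiratory chain through the electron transfer flavoprotein. Malonyl-CoA, made at the mitochondrial surface by acetyl-CoA carboxylase beta, blocks the entry step. Oxidative fibres hold more of this machinery than glycolytic fibres.

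After farnesol, 28 of the 32 genes had a higher fitted level and 4 a lower one, with a median log2 fold change of 0.15. Over all 11674 genes tested, 49.1% had a fold change above 0 and the median was −0.01. The shift was small in each gene: fold changes ran from 0.906 for Mlycd to 1.44 for Fabp3, and every 95% interval lay between 0.690-fold and 1.94-fold. By the quasi-likelihood test of edgeR, 0 members and 0% of all genes had an adjusted p under 0.05 (adjusted p = 1 for each of the 32). Fabp3 alone had an unadjusted p under 0.05, which is 3.13% of the members against 3.01% of all genes in either direction and 1.75% with a higher level. In 4 members, all higher, the groups were separate, with each farnesol library above each vehicle library (12.5%, against 8.82% of all genes in either direction and 4.75% higher). These were Cpt1b, Acads, Acaa2 and Acot13. The share with a higher level thus stands above that of all genes, the share with an unadjusted p under 0.05 in either direction is at the background, and the 4 genes with separate groups are few. Genes measured in the same libraries are not independent of each other, so these shares describe the list and do not test it.

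**Figure D1:**
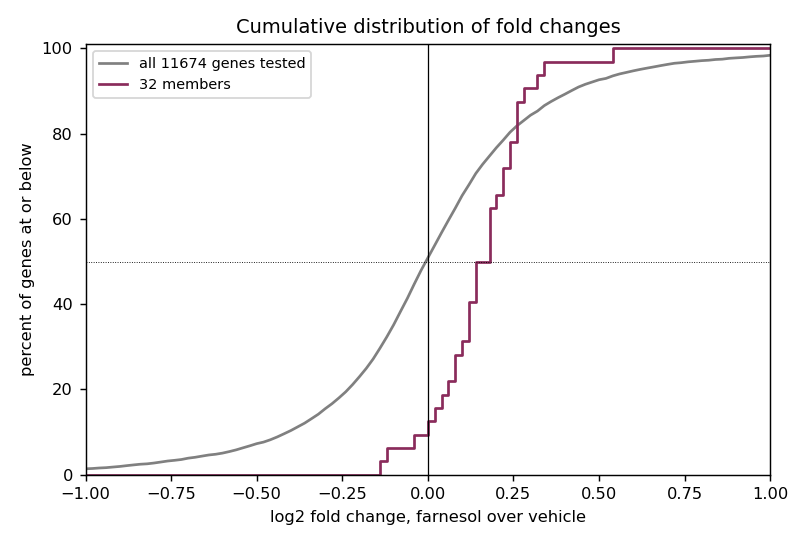
Cumulative percent of genes (vertical axis) at or below each log2 fold change of farnesol over vehicle (horizontal axis), for all 11674 genes tested and for the 32 fatty acid genes. The curve of the 32 genes crosses 50% at 0.15 while that of all genes crosses it at −0.01.

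Total counts ran from 9895700 to 12707751 per library, and the 32 genes took 0.320% to 0.450% of them. Each member had at least 43 counts in each library and all 32 passed the filter on low counts. Levels are given in CPM, counts scaled by library size, itself adjusted by the trimmed mean of M-values (TMM), and lists of 3 values follow the order of replicates 1, 2 and 3. Means are given ± SD over the 3 libraries of a group, vehicle first. The skeletal muscle markers Acta1 and Ckm were abundant, at means of 36141 and 11246 CPM in vehicle. Vehicle replicate 3 stood apart in the summed level of 7 skeletal muscle markers, at 104223 CPM against 132360 to 153984 CPM elsewhere, and of the macrophage markers, at 241 CPM against 103 to 173 CPM. Farnesol replicate 1 stood apart in the 45S ribosomal RNA precursor Rn45s, at 4.97% of counts against 9.92% to 15.4% in the other 5 libraries. In bulk tissue, fewer cells or fibres of a type and less RNA per cell cannot be told apart.

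Levels of different genes were compared as CPM per kilobase of the longest annotated transcript, although counts read near 3′ ends need not grow with length. Etfb, Fabp3 and Acot13 were the highest of the 32 on that scale in vehicle, at 342 ± 42.6, 329 ± 84.0 and 276 ± 10.02 CPM per kilobase, and Etfb and Fabp3 did not differ beyond their spread. In farnesol libraries Fabp3 stood at 475 ± 116, Etfb at 369 ± 26.4 and Acot13 at 319.6 ± 19.9 CPM per kilobase. Lpl (119 ± 21.3), Acadl (114 ± 5.89) and Eci1 (100.6 ± 18.8) followed in vehicle, with overlapping values. The entry step Cpt1b was at 50.3 ± 1.498 and Cpt2 at 13.4 ± 1.498 CPM per kilobase. Etfb, Fabp3 and Acot13 also have the shortest transcripts of the 32 (0.893, 0.823 and 0.721 kilobases), so their rank depends on the division by length. By CPM alone, Lpl was highest in vehicle at 492 CPM, followed by Etfb (305) and Fabp3 (271). Hadha (222) and Acadl (218) then stood above Acot13 (199).

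Of the uptake genes, 5 of 5 had higher fitted levels after farnesol, with a median log2 fold change of 0.23. The median was 0.09 without farnesol replicate 2, and 4 of 5 were higher without that library, vehicle replicate 1 or vehicle replicate 2. Fabp3 (chromosome 4, 130308738 to 130315463, mm10, plus strand), the fatty acid binding protein of heart and muscle cytosol, differed most of all 32 genes. It measured 275, 199.5 and 338 CPM in the vehicle libraries and 458, 282 and 432 CPM in the farnesol libraries. Farnesol replicates 1 and 3 lay above all vehicle libraries, and farnesol replicate 2 lay below vehicle replicate 3. The fold was 1.44, with a 95% interval of 1.08 to 1.94 (log2 fold change 0.53, SE 0.20, edgeR unadjusted p = 0.0169). With the lowest vehicle library left out, the log2 fold change was 0.35 (edgeR unadjusted p = 0.0908), and with farnesol replicate 1 left out 0.40 (edgeR unadjusted p = 0.104). It was 0.72 with vehicle replicate 3 removed and also with farnesol replicate 2 removed, the libraries that overlap.

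The 3′ end of Fabp3 shares 81 bases of exon with Zcchc17, a gene on the opposite strand that meets it tail to tail, and whether the counting used strand is not given in the sources used here. Zcchc17 held 11.5% to 29.5% as many counts as Fabp3. It measured 56.1, 58.8 and 51.8 CPM in the vehicle libraries and 52.5, 74.2 and 62.6 CPM in the farnesol libraries. Farnesol replicate 1, the highest library for Fabp3, was the second lowest for Zcchc17. Exons of Crat, Acadvl, Echs1, Acaa1a and Etfdh also overlap a gene on the other strand (Dolpp1, Dvl2, Paox, Myd88 and 4930579G24Rik, by 59 to 377 bases), so reads of these pairs may be mixed as well. The 250 bases before the Fabp3 start are shown because this is the member with the largest difference, with the 1 match to the general E-box pattern CANNTG in capitals (chr4:130308488-130308737, GRCm38.p6, plus strand, from RefSeq).
Fabp3 upstream: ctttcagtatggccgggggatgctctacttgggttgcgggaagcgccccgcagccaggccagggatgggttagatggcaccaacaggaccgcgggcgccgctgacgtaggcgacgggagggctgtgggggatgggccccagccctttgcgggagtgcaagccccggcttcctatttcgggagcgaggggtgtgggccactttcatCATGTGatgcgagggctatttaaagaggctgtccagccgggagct
Such a match is common: 66.2% of the 32851 RefSeq windows of this length held CANNTG on either strand.

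Lpl (chromosome 8, 68880555 to 68906932), the lipase that frees fatty acids at the capillary wall, measured 394, 563 and 518 CPM in the vehicle libraries and 493, 615 and 556 CPM in the farnesol libraries. The groups overlapped, and vehicle replicate 1 was the lowest library. The fold was 1.13, with a 95% interval of 0.897 to 1.42, and the log2 fold change of 0.18 (SE 0.16) became 0.04 without that library. Cd36 (chromosome 5, 17781690 to 17888959), the fatty acid translocase of the surface membrane, measured 86.4, 108 and 131 CPM in the vehicle libraries and 95.5, 132 and 105 CPM in the farnesol libraries. Its groups covered almost the same range, at a fold of 1.02, with a 95% interval of 0.794 to 1.31. The sign turned without vehicle replicate 1 (−0.11) or farnesol replicate 2 (−0.12). CD36 and LPL are also made by adipocytes and CD36 by capillary endothelium. Of the 10 adipocyte markers tested, 8 were higher and 2 lower (Plin4, log2 fold change −0.05, and Acvr1c, −0.66). An unadjusted p under 0.05 was found for 5, all higher (Plin1, Cidec, Lep, Retn and Thrsp), against 1.75% of all genes. The adjusted threshold was passed by 0. The same 5 had separate groups, against 4.75% of all genes higher. The summed level of the list was 322 to 399 CPM in vehicle and 326 to 537 CPM in farnesol libraries. Plin4, the largest part of that sum, measured 194, 212 and 208 CPM in the vehicle libraries and 245, 218 and 129 CPM in the farnesol libraries. The median log2 fold change of the list was 0.56, and 0.26 without vehicle replicate 2 and 0.32 without farnesol replicate 1. Cidec, a lipid droplet protein of adipocytes, averaged 16.3 ± 6.43 and 30.0 ± 4.14 CPM, and Adipoq, the adiponectin gene, 33.4 ± 11.1 and 45.9 ± 15.6 CPM. The 12 capillary markers were higher in 6 and lower in 6, at 315 to 362 CPM in vehicle and 268 to 439 CPM in farnesol libraries, and with 1 library left out 4 to 10 of 12 were higher. The part of these cells in the Lpl and Cd36 values was not tested.

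The fatty acid transport proteins, which pair uptake with acyl-CoA synthesis, had the lowest levels per kilobase of transcript among the 32, at 3.31 ± 0.394 CPM per kilobase for Slc27a1 and 1.77 ± 0.614 for Slc27a4 in vehicle. Slc27a1 (FATP1) measured 9.68, 12.04 and 10.1 CPM in the vehicle libraries and 11.5, 18.2 and 9.91 CPM in the farnesol libraries. Farnesol replicate 2 stood well above the other 5 libraries, which overlapped. The log2 fold change of 0.32 (SE 0.28) was 0.02 without it. Slc27a4 (FATP4) averaged 7.19 ± 2.49 and 8.47 ± 2.15 CPM (log2 fold change 0.23, SE 0.34), and its value was −0.03 without vehicle replicate 2, the lowest library.

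**Figure D2:**
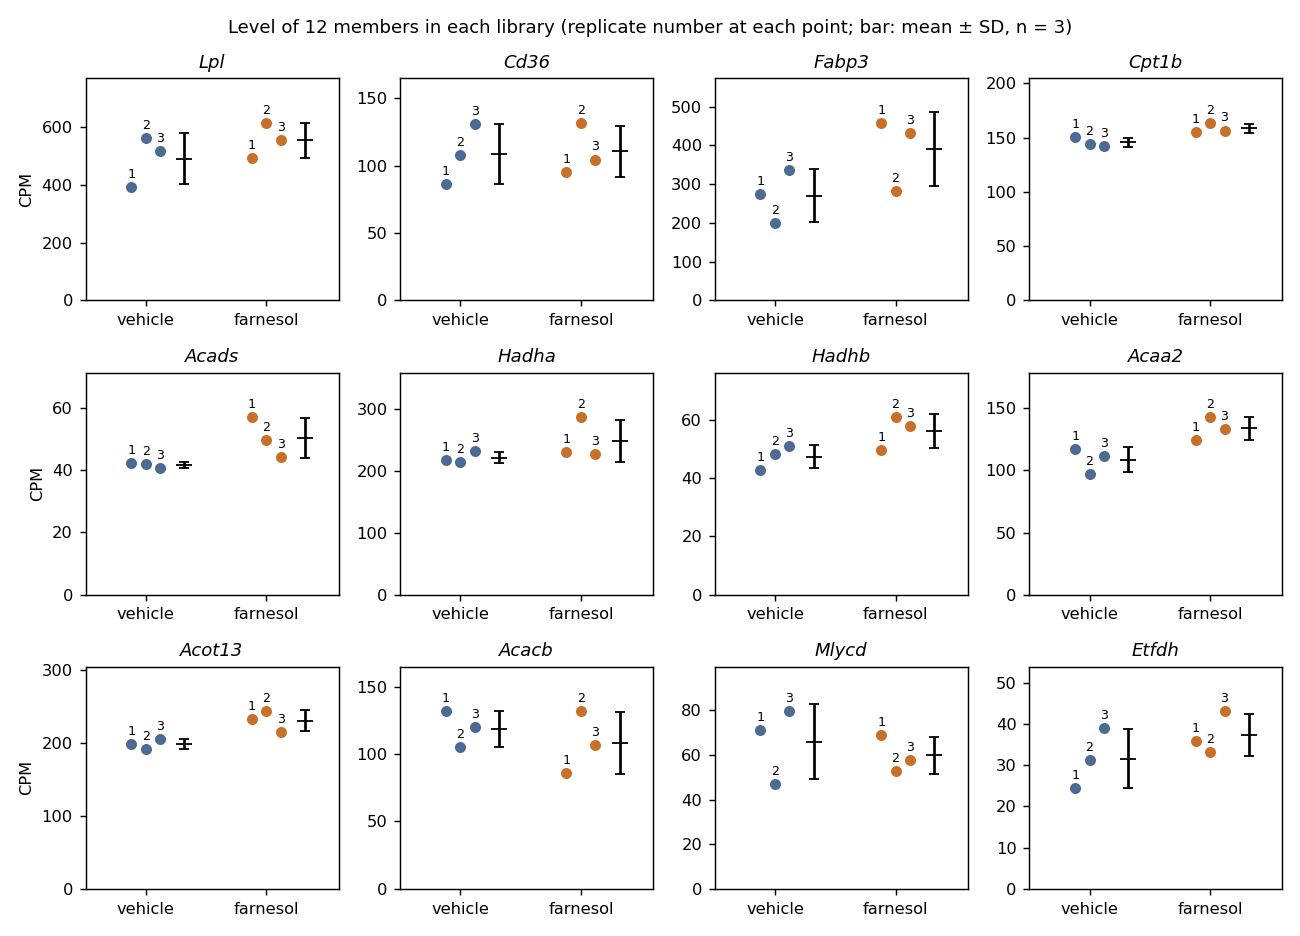
CPM (vertical axes, from 0) of 12 of the 32 genes in each library, vehicle in blue and farnesol in orange, with the replicate number at each point and the mean ± SD of 3 libraries beside it. Cpt1b, Acads, Acaa2 and Acot13 have separate groups, while Fabp3 spans 199.5 to 458 CPM and overlaps.

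Of the 2 activation genes 1 was higher, at a median log2 fold change of 0.05. The carnitine shuttle had 3 of 3 members higher, at a median of 0.12. With 1 library left out, the medians were −0.07 to 0.23 for activation and 0.06 to 0.14 for the shuttle. Acsl1, the main long-chain acyl-CoA synthetase of oxidative tissue, measured 139.9, 126 and 154 CPM in the vehicle libraries and 162, 157 and 137 CPM in the farnesol libraries. The groups overlapped, at a fold of 1.08, with a 95% interval of 0.873 to 1.35 (log2 fold change 0.12, SE 0.15). Acsl6, a synthetase best known from brain and muscle, averaged 31.8 ± 9.90 and 31.5 ± 4.67 CPM (log2 fold change −0.02, SE 0.22). Its sign was positive without vehicle replicate 3 (0.26), the highest library, or farnesol replicate 2 (0.09).

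Cpt1b (chromosome 15, 89416405 to 89425862, minus strand), the muscle carnitine palmitoyltransferase and the step that malonyl-CoA inhibits, measured 151, 144 and 142 CPM in the vehicle libraries and 155, 164 and 157 CPM in the farnesol libraries. The lowest farnesol library was above the highest vehicle library, and both groups were narrow, with coefficients of variation of 2.98% and 2.85%. The fold was 1.09, with a 95% interval of 0.885 to 1.34 (log2 fold change 0.12, SE 0.14, edgeR unadjusted p = 0.406), and the fitted error, which borrows from all genes, was wider than the spread of these 6 values. The files also list ChkbCpt1b, a feature named for Cpt1b and its neighbour Chkb, with 100.1% to 104% as many counts as Cpt1b, so the same reads may stand in both. Its log2 fold change was 0.12. Scaled to total counts alone, 1 of the 32 genes, Acaa2, had separate groups in place of 4, and the groups of Cpt1b overlapped. The share over all genes was then 6.70% in place of 8.82%.

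Cpt2, the transferase of the inner membrane that rebuilds acyl-CoA in the matrix, measured 28.0, 35.0 and 32.5 CPM in the vehicle libraries and 46.6, 30.3 and 34.7 CPM in the farnesol libraries. Farnesol replicate 1 was the highest library and the other 5 overlapped. The log2 fold change was 0.23 (SE 0.20) with all libraries and 0.03 without that library. Crat, the carnitine acetyltransferase that buffers acetyl-CoA, averaged 112 ± 12.9 and 115 ± 11.7 CPM (log2 fold change 0.04, SE 0.16), with a negative sign without vehicle replicate 3 (−0.05) or farnesol replicate 2 (−0.04). Slc25a20, the carnitine-acylcarnitine carrier that completes the shuttle but was not among the 32, averaged 47.8 ± 2.56 and 51.5 ± 8.16 CPM (log2 fold change 0.11, SE 0.17).

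The acyl-CoA dehydrogenases, which make the first double bond, had 4 of 5 members higher and a median log2 fold change of 0.09 (0.05 without vehicle replicate 2 and 0.14 without vehicle replicate 3). Acads (chromosome 5, 115110299 to 115119346), for short chains, measured 42.3, 41.9 and 40.6 CPM in the vehicle libraries and 57.0, 49.6 and 44.2 CPM in the farnesol libraries. The groups were separate, with vehicle values almost equal, and the farnesol values spread upward from 44.2 CPM. Scaled to total counts alone, the groups of Acads overlapped. The fold was 1.21, with a 95% interval of 0.944 to 1.55 (log2 fold change 0.27, SE 0.17), and the log2 fold change 0.17 without farnesol replicate 1, the highest library.

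Acadm, for medium chains, measured 89.7, 143 and 123 CPM in the vehicle libraries and 129, 127 and 147 CPM in the farnesol libraries. The groups overlapped and vehicle replicate 1 was low, and the log2 fold change of 0.18 (SE 0.17) was 0.01 without it. Acadl, for long chains, measured 223, 206 and 226 CPM in the vehicle libraries and 221, 232 and 246 CPM in the farnesol libraries, at a fold of 1.07, with a 95% interval of 0.869 to 1.31. Acadvl, the very-long-chain enzyme of the inner membrane, measured 125, 114 and 136 CPM in the vehicle libraries and 140.3, 131 and 124 CPM in the farnesol libraries, at a fold of 1.06, with a 95% interval of 0.851 to 1.31. Both had overlapping groups. Acadsb, which oxidises short branched chains of isoleucine breakdown, averaged 78.5 ± 6.85 and 76.2 ± 0.400 CPM (log2 fold change −0.04, SE 0.16), and its sign was positive without vehicle replicate 2 (0.02).

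The mitochondrial trifunctional protein, which carries out the later steps for long chains, is built from the products of Hadha and Hadhb. The 2 genes stand head to head on chromosome 5, Hadha on the minus strand (30119423 to 30154980) and Hadhb on the plus strand (30155253 to 30184593), with 272 bases between their starts. The 250 bases before the Hadhb start lie wholly in this gap and are printed because both genes begin there, with the 2 matches to the Sp1 box GGGCGG, read on both strands, in capitals (chr5:30155003-30155252, GRCm38.p6, plus strand, from RefSeq).
Hadhb upstream: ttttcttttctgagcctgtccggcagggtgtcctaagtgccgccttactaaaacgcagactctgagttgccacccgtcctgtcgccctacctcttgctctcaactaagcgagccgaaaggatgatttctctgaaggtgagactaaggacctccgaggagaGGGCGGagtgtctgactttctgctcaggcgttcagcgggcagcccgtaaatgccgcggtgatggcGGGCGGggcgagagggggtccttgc
Hadha measured 218, 215 and 233 CPM in the vehicle libraries and 232, 288 and 228 CPM in the farnesol libraries. Farnesol replicate 2 was high and the other 5 libraries overlapped, and the log2 fold change of 0.17 (SE 0.15) was 0.05 without it. Hadhb measured 42.9, 48.3 and 50.8 CPM in the vehicle libraries and 49.5, 60.8 and 57.8 CPM in the farnesol libraries. Farnesol replicate 2 was its highest library too, and farnesol replicate 1 lay between vehicle replicates 2 and 3. The fold was 1.18, with a 95% interval of 0.929 to 1.51 (log2 fold change 0.24, SE 0.17). Per kilobase of the longest annotated transcript, Hadha stood 4.30 to 5.56 times as high as Hadhb across the 6 libraries. That ratio averaged 5.14 ± 0.372 in vehicle and 4.86 ± 0.482 in farnesol libraries, a difference within the spread of either group.

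Of the hydratase, dehydrogenases and thiolases outside that complex, namely Echs1, Hadh, Hsd17b10 and Acaa2 of the matrix and Acaa1a of peroxisomes, 5 of 5 had higher fitted levels. Their median log2 fold change was 0.13, and 0.05 without farnesol replicate 1, where 4 of 5 were higher. Acaa2 (chromosome 18, 74779212 to 74806207), the thiolase that releases acetyl-CoA, measured 117, 97.2 and 111 CPM in the vehicle libraries and 125, 143 and 134 CPM in the farnesol libraries. Every farnesol library was above every vehicle library, with the closest pair at 117 and 125 CPM. The fold was 1.23, with a 95% interval of 0.992 to 1.53 (log2 fold change 0.30, SE 0.15, edgeR unadjusted p = 0.0584), the second smallest p of the 32, and the log2 fold change stayed between 0.23 and 0.36 with each library left out in turn. DESeq2 gave an unadjusted p of 0.0458. Echs1, the short-chain enoyl-CoA hydratase, averaged 35.2 ± 6.50 and 40.2 ± 2.70 CPM (log2 fold change 0.19, SE 0.19), with a log2 fold change of 0.05 without vehicle replicate 1. Hadh, the hydroxyacyl-CoA dehydrogenase of short chains, averaged 127 ± 2.24 and 139 ± 21.8 CPM (log2 fold change 0.13, SE 0.15), and −0.01 without farnesol replicate 1, its highest library. Hsd17b10, of branched-chain breakdown and mitochondrial tRNA processing, averaged 42.9 ± 3.92 and 46.7 ± 4.33 CPM (log2 fold change 0.12, SE 0.17). Acaa1a, a peroxisomal thiolase, averaged 15.9 ± 1.85 and 16.7 ± 0.953 CPM (log2 fold change 0.08, SE 0.23, and −0.02 without vehicle replicate 2). Its near copy Acaa1b held 5.71% to 11.1% as many counts, and reads of the pair may be shared between them.

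The auxiliary enzymes, which move or remove double bonds of unsaturated fatty acids, had 4 of 4 members higher and a median log2 fold change of 0.14. The median was 0.07 without vehicle replicate 1, 0.02 without farnesol replicate 1 and 0.22 without farnesol replicate 3, and 3 of 4 were higher when farnesol replicate 1, farnesol replicate 2 or vehicle replicate 3 was left out. Eci1, an enoyl-CoA isomerase of the matrix, averaged 114 ± 21.3 and 136 ± 8.21 CPM (log2 fold change 0.25, SE 0.16). Its vehicle replicate 1 was the lowest library, at 90.7 CPM, and the value was 0.11 without it. Eci2, an isomerase found in peroxisomes and mitochondria, averaged 39.3 ± 3.42 and 44.2 ± 9.59 CPM (log2 fold change 0.17, SE 0.19), and Ech1, a dienoyl-CoA isomerase, 85.9 ± 10.4 and 93.2 ± 12.1 CPM (log2 fold change 0.12, SE 0.16). Both were highest in farnesol replicate 1, without which the values were −0.02 and 0.01. Decr1, the dienoyl-CoA reductase, averaged 75.2 ± 9.92 and 76.1 ± 6.11 CPM (log2 fold change 0.02, SE 0.16), with a negative sign without vehicle replicate 3 (−0.08) or farnesol replicate 2 (−0.05).

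The electron transfer flavoprotein is a dimer of the products of Etfa and Etfb, and Etfdh encodes the membrane enzyme that hands its electrons to ubiquinone. All 3 had higher fitted levels, and 2 of 3 did without vehicle replicate 1. Etfdh measured 24.5, 31.2 and 38.9 CPM in the vehicle libraries and 35.8, 33.2 and 43.0 CPM in the farnesol libraries. The groups overlapped, with vehicle replicate 1 lowest and farnesol replicate 3 highest, and the log2 fold change of 0.24 (SE 0.20) was 0.09 without the former. Etfa averaged 28.6 ± 8.18 and 33.0 ± 6.05 CPM (log2 fold change 0.20, SE 0.22) and Etfb 305 ± 38.0 and 329 ± 23.6 CPM (log2 fold change 0.11, SE 0.15). Vehicle replicate 1 was lowest for Etfa, at 19.2 CPM, and second highest for Etfb, at 349 CPM. Without it the values were −0.02 for Etfa and 0.22 for Etfb. The window before the Etfdh start is shown as the only window among the 26 members with one that held the full palindrome of nuclear respiratory factor 1 (chr3:79628768-79629017, GRCm38.p6, minus strand, from RefSeq, match in capitals), which 0.782% of all windows held.
Etfdh upstream: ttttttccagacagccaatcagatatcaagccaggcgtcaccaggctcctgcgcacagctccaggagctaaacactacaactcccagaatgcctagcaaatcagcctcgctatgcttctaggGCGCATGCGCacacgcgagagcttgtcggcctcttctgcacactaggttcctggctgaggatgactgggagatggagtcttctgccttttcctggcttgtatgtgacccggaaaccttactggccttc
No other pattern searched overlapped the matches printed here.

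Among the genes that set malonyl-CoA and free CoA, the pair acting on malonyl-CoA had the 2 lowest fold changes of the 32. The other 2 genes with lower fitted levels were Acsl6 and Acadsb. Acacb (chromosome 5, 114146321 to 114250761), the acetyl-CoA carboxylase that makes malonyl-CoA at the mitochondrial surface, measured 132, 105 and 119.9 CPM in the vehicle libraries and 85.7, 132 and 106 CPM in the farnesol libraries. Farnesol replicate 1 was the lowest library and farnesol replicate 2 was about level with vehicle replicate 1. The fold was 0.908, with a 95% interval of 0.711 to 1.16 (log2 fold change −0.14, SE 0.17), and the log2 fold change 0.00 without farnesol replicate 1. Mlycd (chromosome 8, 119394852 to 119421838), the decarboxylase that removes malonyl-CoA, measured 71.2, 47.2 and 79.5 CPM in the vehicle libraries and 68.7, 52.7 and 57.9 CPM in the farnesol libraries. All 3 farnesol values lay inside the vehicle range. The fold was 0.906, with a 95% interval of 0.690 to 1.19 (log2 fold change −0.14, SE 0.19), and the sign was positive without vehicle replicate 3 (0.01). The fold changes of the enzymes that make and remove malonyl-CoA were thus almost equal, with wide intervals. Acot13 (chromosome 13, 24817955 to 24831489), a thioesterase of mitochondria that splits acyl-CoA, measured 199, 192 and 206 CPM in the vehicle libraries and 233, 244 and 215 CPM in the farnesol libraries. Its groups did not overlap, at a fold of 1.16, with a 95% interval of 0.943 to 1.42 (log2 fold change 0.21, SE 0.14, edgeR unadjusted p = 0.152). With 1 library left out the log2 fold change was 0.17 to 0.26, and scaled to total counts alone the groups overlapped.

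**Figure D3:**
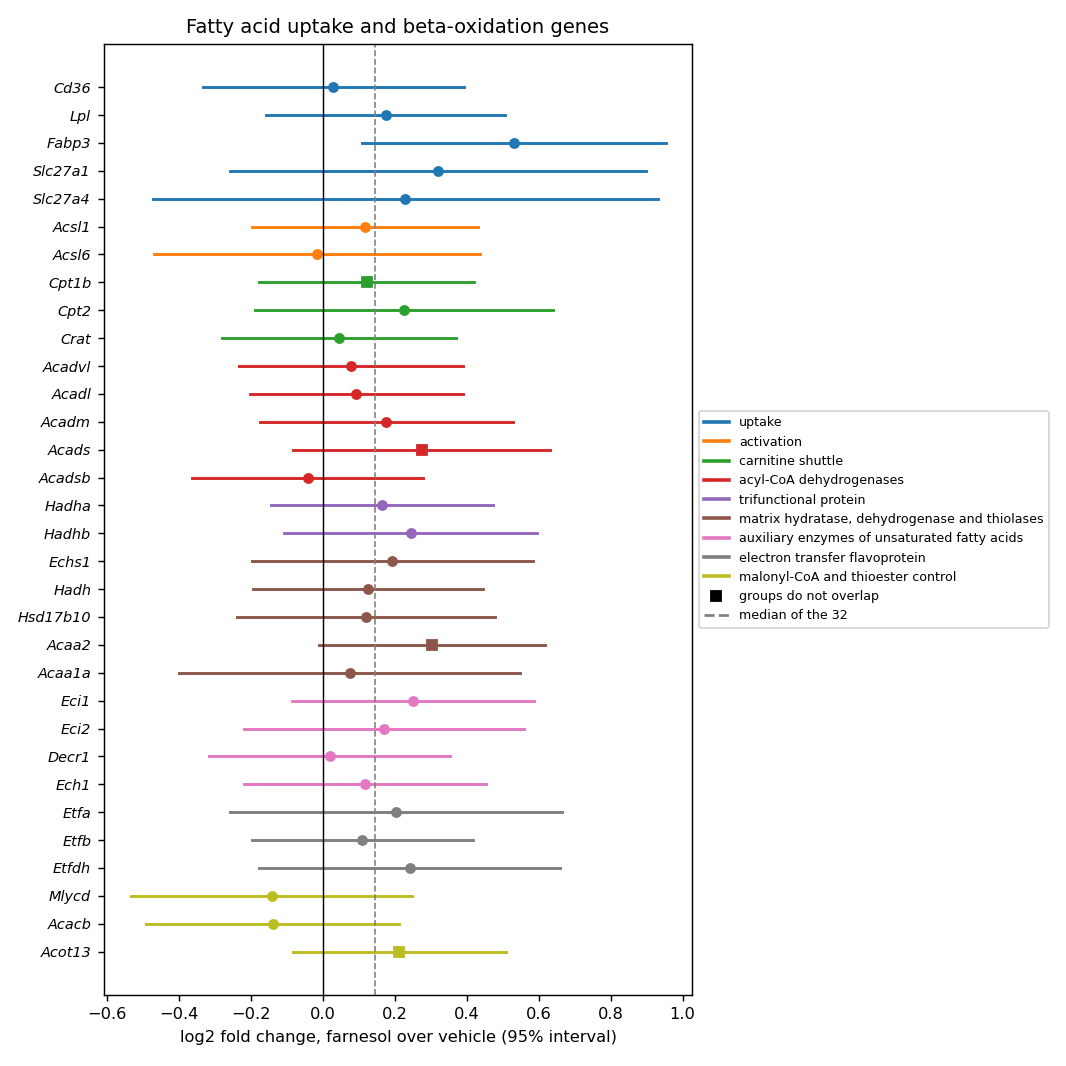
Log2 fold change of farnesol over vehicle (horizontal axis) for the 32 genes, ordered and coloured by role, with 95% intervals of the edgeR fit as bars and the median of the 32 as a dashed line at 0.15. Squares mark the 4 genes whose groups do not overlap, and all intervals but that of Fabp3 include 0.

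Library by library, the members did not form a single step between groups. Their mean deviation from each gene's own 6-library mean of log2 CPM was −0.14, −0.11 and 0.03 in the vehicle libraries and 0.10, 0.07 and 0.05 in the farnesol libraries. By the mean, vehicle replicate 3 lay just under farnesol replicate 3. By the median the order of this pair turned, at 0.02 and −0.02. The highest value of a gene fell in farnesol replicate 1 for 12 members, in farnesol replicate 2 for 11 and in farnesol replicate 3 for 5. Vehicle replicates 2 and 3 were highest for 2 each, and vehicle replicate 1 for none, where each library was highest for 14.7% to 18.2% of all genes tested. The lowest value fell in vehicle replicate 1 for 12 members, in vehicle replicate 2 for 13 and in vehicle replicate 3 for 5. Farnesol replicates 1 and 2 were lowest for 1 each, and farnesol replicate 3 for none. Each library was lowest for 13.9% to 18.3% of all genes tested.

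Summed over the 32 genes, the level was 3459, 3535 and 3789 CPM in the vehicle libraries and 4054, 4071 and 3955 CPM in the farnesol libraries. These sums did not overlap. As a share of raw counts they did: 0.326%, 0.320% and 0.432% in vehicle against 0.450%, 0.383% and 0.387% in farnesol, so the order of vehicle replicate 3 depends on the scaling. Its TMM factor was 1.14, the highest of the 6. Fits with 1 library left out gave 27 members higher at a median log2 fold change of 0.13 without farnesol replicate 1, 26 at 0.11 without farnesol replicate 2 and 28 at 0.20 without vehicle replicate 3.

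**Figure D4:**
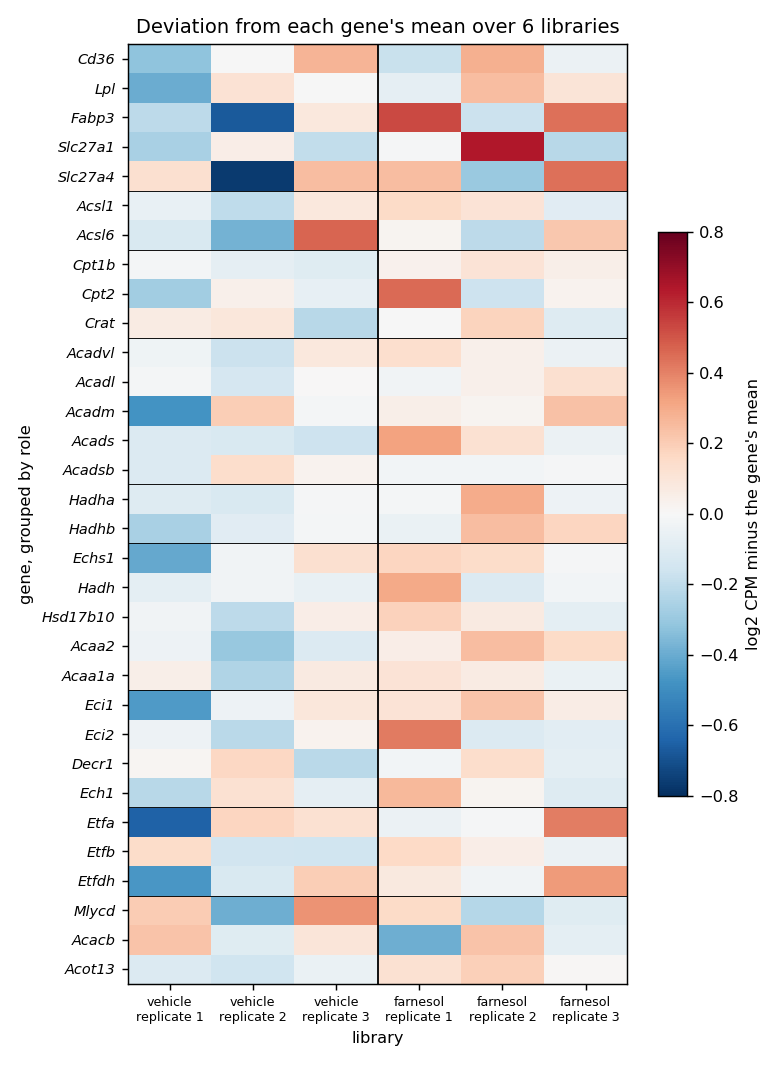
Deviation of log2 CPM from each gene's mean over the 6 libraries (colour, red above and blue below) for the 32 genes (rows, grouped by role) in the 6 libraries (columns). Blue prevails in vehicle replicates 1 and 2, where 12 and 13 genes are lowest, and red in farnesol replicates 1 and 2, where 12 and 11 genes are highest.

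Fibre type and other cells were read from marker lists in the same fit. The 7 skeletal muscle markers were higher in 6 of 7 cases, at a median log2 fold change of 0.09. Without vehicle replicate 3, 3 of 7 were higher at a median of −0.07. The median was 0.21 without vehicle replicate 1 and 0.00 without farnesol replicate 1, where 4 of 7 were higher. The 10 slow fibre markers were higher in 10 of 10 cases (median log2 fold change 0.25), with a summed level of 1675 to 2315 CPM in vehicle and 2106 to 3199 CPM in farnesol libraries. Myl2, a slow myosin light chain and the 1 marker of these with an unadjusted p under 0.05, averaged 157 ± 23.7 and 211 ± 45.4 CPM. Of all genes, 3.01% had such a p in either direction and 1.75% with a higher level. Myoz2 was the 1 slow marker with separate groups, against 4.75% of all genes higher, and averaged 145 ± 5.05 and 173 ± 26.6 CPM. The list's mean deviation was 0.54 in farnesol replicate 2 against −0.37 to 0.04 elsewhere, and without that library 6 of 10 were higher, at a median of 0.04. Without vehicle replicate 3, the lowest library, the median was 0.15. Macrophage markers were lower in 8 of 9 (median −0.20), at 103 to 241 CPM in vehicle and 127 to 173 CPM in farnesol libraries. The direction of the list turned without vehicle replicate 3, where 6 of 9 were higher at a median of 0.23, and the median was −0.49 without vehicle replicate 2 and −0.35 without farnesol replicate 1. Adgre1 was the 1 macrophage marker with an unadjusted p under 0.05 (log2 fold change −1.04, SE 0.42, edgeR unadjusted p = 0.0207), against 3.01% of all genes. It measured 6.04, 5.26 and 6.53 CPM in the vehicle libraries and 2.20, 4.35 and 2.06 CPM in the farnesol libraries, with separate groups. Its mean count was 48.2 per library, and 0 markers of the list passed the adjusted threshold. Of the brown adipocyte markers, Ucp1 had 0 counts in all 6 libraries, which allows up to 0.303 CPM in a library. Cidea measured 0.959, 0.304 and 1.86 CPM in the vehicle libraries and 2.56, 3.01 and 2.48 CPM in the farnesol libraries, with separate groups (log2 fold change 1.34, SE 0.68). Elovl3 measured 3.45, 6.17 and 3.73 CPM in the vehicle libraries and 2.91, 2.85 and 3.10 CPM in the farnesol libraries, with groups separate in the other direction (log2 fold change −0.59, SE 0.43). Both rest on few counts, with means of 20.7 and 39.7 per library. The part of fibre type or other cells in the fatty acid genes was not tested.

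**Figure D5:**
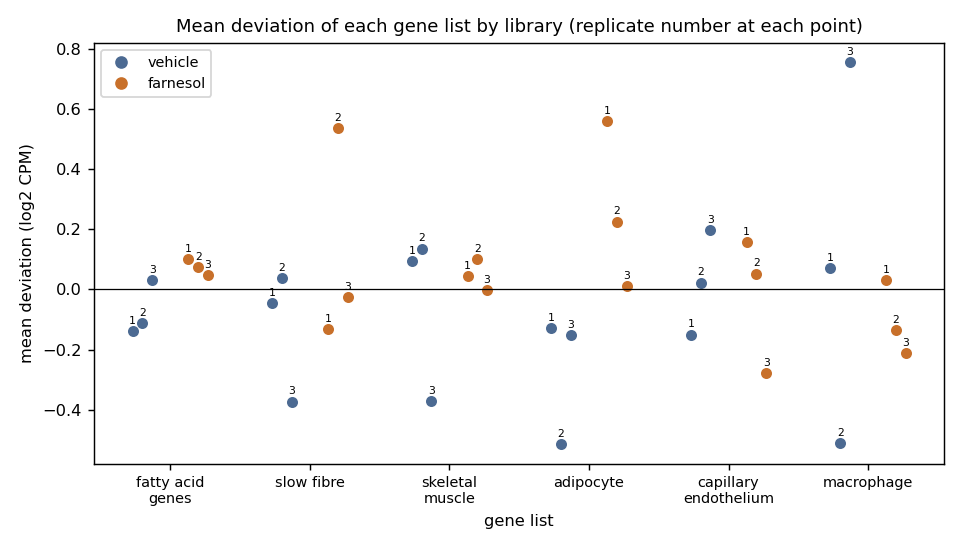
Mean deviation of log2 CPM from each gene's 6-library mean (vertical axis) for the fatty acid genes and 5 marker lists (horizontal axis), with a point for each library labelled by replicate number, vehicle in blue and farnesol in orange. The fatty acid genes span −0.14 to 0.10, while slow fibre markers reach 0.54 in farnesol replicate 2 and adipocyte markers 0.56 in farnesol replicate 1.

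Of 80 further genes of fatty acid and ketone metabolism tested, 51 were higher and 29 lower, with a median log2 fold change of 0.08. Over all genes tested, 49.1% were higher. The adjusted threshold was passed by 0 of the 80 genes. An unadjusted p under 0.05 was found for 1 of the 80, Bdh1, against 3.01% of all genes in either direction. Other genes of mitochondrial oxidation and carnitine handling split into 10 higher and 8 lower (median 0.03), with medians from −0.04 without farnesol replicate 2 (7 of 18 higher) to 0.09 without farnesol replicate 3. The acyl-CoA synthetases Acsl5 (log2 fold change −0.79, SE 0.42) and Acsl3 (log2 fold change −0.40, SE 0.23), with the smallest p in this list, had lower fitted levels. Peroxisomal genes numbered 13 higher and 7 lower (median 0.09), with a median of −0.03 without vehicle replicate 1 (9 of 20 higher), 0.03 without vehicle replicate 2, 0.25 without vehicle replicate 3 and −0.02 without farnesol replicate 3 (9 of 20 higher). Pex7, an import receptor, averaged 8.45 ± 2.61 and 5.78 ± 0.930 CPM (log2 fold change −0.55, SE 0.33) and Pecr, an enoyl-CoA reductase, 15.1 ± 2.02 and 19.6 ± 2.67 CPM (log2 fold change 0.38, SE 0.23). Genes of transport, binding and thioesterases numbered 10 higher and 4 lower (median 0.17), with a median of 0.09 without vehicle replicate 1, 0.11 without vehicle replicate 2, 0.07 without farnesol replicate 1, 0.28 without farnesol replicate 2 and 0.06 without farnesol replicate 3. Acot1, a cytosolic thioesterase with close copies in its family that may share reads, averaged 2.98 ± 1.39 and 1.18 ± 0.772 CPM (log2 fold change −1.34, SE 0.67), and Lmf1, which matures LPL, 7.09 ± 0.530 and 9.96 ± 2.30 CPM (log2 fold change 0.49, SE 0.30).

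Ketone body genes had 6 of 7 members higher (median 0.16), and 4 of 7 without farnesol replicate 3, at a median of 0.06. Bdh1, the hydroxybutyrate dehydrogenase, measured 16.3, 27.7 and 32.6 CPM in the vehicle libraries and 42.9, 29.7 and 41.8 CPM in the farnesol libraries. The lowest farnesol library lay below the highest vehicle library, and vehicle replicate 1 was the lowest of all. The fold was 1.49, with a 95% interval of 1.06 to 2.09 (log2 fold change 0.58, SE 0.23, edgeR unadjusted p = 0.0227). Oxct1, which activates ketone bodies in muscle, averaged 355 ± 59.5 and 367 ± 26.1 CPM (log2 fold change 0.05, SE 0.15). The 21 regulators of the pathway split into 12 higher and 9 lower with a median of 0.04, and 11 to 18 were higher with 1 library left out, at medians of 0.02 to 0.09 (18 at 0.09 without vehicle replicate 2). Esrrg, an oestrogen-related receptor gene with the smallest p of these, averaged 12.2 ± 3.09 and 16.0 ± 2.98 CPM (log2 fold change 0.39, SE 0.26). Ppara, the lipid-sensing nuclear receptor, had a log2 fold change of 0.10 (SE 0.23), Ppard of 0.15 (SE 0.26), Esrra, a paralog of Esrrg, of 0.07 (SE 0.17), and Ucp3, the uncoupling protein of muscle that follows fatty acid supply, of 0.16 (SE 0.18). Of the 9 lower regulators, Klf15 had the smallest p, at a log2 fold change of −0.28 (SE 0.24). Sirt1 was at −0.20 (SE 0.29), Pdk4 at −0.15 (SE 0.58) and Rxra at −0.06 (SE 0.16).

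Promoter windows of 250 bases were listed for 26 of the 32 genes, and not for Cpt1b, Lpl, Crat, Acot13, Decr1 and Acaa2. The Sp1 box GGGCGG stood in 18 of the 26, against 32.7% of all windows, and CCAAT in 13 of 26, against 33.9%, in each case on either strand. A member was counted if any of its windows held the pattern, and several members have more than 1 window. The share over all windows counts each window singly, so the 2 shares are not in the same unit. The median content of G and C in the members' windows was 58.8%, against 52.4% over all windows. The direct repeat of PPAR-RXR dimers was found in 0 of 26 and in 0.0330% of all windows, and the extended half-site TCAAGGTCA of oestrogen-related receptors in 1, Acsl6, and in 0.387%. These are matches of letters in short windows and say nothing of binding.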

How the data were processed

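Libraries were made from 500 ng of total RNA with a Lexogen QuantSeq kit, designed to read near the 3′ end of transcripts, per the labels' protocols. The authors deposited raw read counts for each gene symbol, with 1 table per sample. The submitters' processing notes name Bowtie2, bedtools and the mm10 build, while versions, annotation, strand and the handling of copied reads or reads with several matches are not stated there or in the labels. Counts of the 35 symbols on more than 1 line were summed.

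All 23238 symbols entered edgeR 4.0.16 in R 4.3.3: filterByExpr (11674 genes left), TMM scaling (factors 0.905 to 1.14), robust glmQLFit and glmQLFTest of farnesol against vehicle, with Benjamini-Hochberg adjustment over all genes and a threshold of 0.05. The common biological coefficient of variation was 25.7%. SE was taken as the size of the log2 fold change divided by the root of the F statistic, and 95% intervals use t quantiles. Deviations use log2 CPM with a prior count of 2. The labels call the libraries biological replicates. Alternatives were other scalings and filters, DESeq2 1.42.0, limma-voom 3.58.1, a replicate block, removal of Rn45s, and leaving out each library. A count of 0 allows 3 counts (0.236 to 0.303 CPM, counting error only). Members and lists were chosen with earlier results of these data known, so lists are described by counts and medians and not tested. Per-library values are given for 16 core members and for members with an unadjusted p under 0.05 or separate groups. From each further list the genes with an unadjusted p under 0.05 or up to 3 with the smallest p are named. Slc25a20, Oxct1, Ppara, Ppard, Esrra, Ucp3, Sirt1, Pdk4, Rxra and the markers named were chosen for their role, after their values were seen. Positions are RefSeq GRCm38.p6, the chromosomes of mm10, and lengths are GENCODE vM21.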

Additional observations from a re-analysis of the deposited data

How the results depend on the processing

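The median log2 fold change of the 32 genes stayed between 0.14 and 0.17 under the scaling, filter, tool and block alternatives and between 0.11 and 0.20 with each library left out, where 26 to 28 genes were higher. Single genes were less stable: 20 kept their sign in all 14 alternatives and 12 did not, as given beside them. The count of genes called over all genes was 0, with 13 without the filter on low counts and 0 to 3 with 1 library left out (3 without vehicle replicate 2), none of them a member. Members with an unadjusted p under 0.05 numbered 0 with scaling to total counts (2.06% of all genes), 2 (Fabp3 and Acaa2) with DESeq2 (2.502% of all genes), and 0 to 2 with 1 library left out (2.62% to 3.81% of all genes). Members whose groups did not overlap numbered 1, Acaa2, with scaling to total counts (6.70% of all genes) and 6 to 10 with 1 library left out, where 17.8% to 19.4% of all genes did not. The fit with the replicate block gave 2 members with an unadjusted p under 0.05 (Fabp3 and Acaa2, with 3.67% of all genes), 0 called genes, 29 higher members and a median of 0.14, with Acsl6 at 0.02. Fabp3 had an edgeR unadjusted p of 0.000982 in that fit, against 0.0169 without the block. Deviations of same-numbered libraries from their group means correlated at r of −0.02 to 0.06 over genes, which are not independent replicates. Other pairs of a vehicle and a farnesol library gave −0.07 to 0.04. Values this small cannot show whether the numbers pair the samples, and the labels state no pairing. Slc27a4 had the fewest counts, at a mean of 85.0 per library, and the largest SE, 0.34.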

Other observations

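Pairs of related genes were compared as ratios of CPM per kilobase of the longest annotated transcript within each library, which do not depend on the scaling between libraries. The ratio of the muscle form Cpt1b to the liver form Cpt1a was 37.9 ± 6.98 in vehicle and 38.9 ± 12.7 in farnesol libraries (exact two-sided permutation p = 1, n = 3 and 3), and that of Acacb to the cytosolic carboxylase Acaca 11.3 ± 2.51 in vehicle and 9.18 ± 2.28 in farnesol libraries (exact two-sided permutation p = 0.4, n = 3 and 3). Acsl1 to Acsl6 gave 4.70 ± 0.908 in vehicle and 5.05 ± 1.08 in farnesol libraries (exact two-sided permutation p = 0.6, n = 3 and 3), and Fabp3 to Fabp4, the binding protein of adipocytes and capillaries, gave 10.5 ± 4.25 in vehicle and 11.6 ± 1.32 in farnesol libraries (exact two-sided permutation p = 0.5, n = 3 and 3). The lengths used were 0.823 kilobases for Fabp3 and 4.231 for Fabp4, so most of the size of their ratio comes from the division by length. By CPM, Fabp3 averaged 271 and Fabp4 147 in vehicle, and 391 and 174 in farnesol libraries. In 9 ratios computed, including Hadha to Hadhb and Etfb to Etfa, the smallest exact permutation p was 0.4 and the smallest p the design allows is 0.1. All 9 adjusted p were 1 (Benjamini-Hochberg). Whether counts in these libraries grow with transcript length was not tested, and the size of a ratio depends on the length used.

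The ratio of Etfb to Etfa was 28.4 in vehicle replicate 1 and 11.9 to 18.9 in the other 5 libraries. Of the 32 genes, Cpt1b spread least over the 6 libraries, with the highest value 1.15 times the lowest, and Slc27a4 spread most, at 2.37 times, on 43 to 106 counts.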
